A study of Homo sapiens with 8 samples.

Results

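The genes described here are MIR210HG, a long noncoding RNA gene on the short arm of chromosome 11, and the 7 genes HRAS, RASSF7, LOC143666, PHRF1, IRF7, CDHR5 and DEAF1 that lie around it. They are 8 of the 23193 genes in the PRO-seq count tables, taken by symbol on chromosome 11 and ordered by position, in order to ask how far the hypoxic response at MIR210HG extends to adjacent transcription units. MIR210HG was chosen by its gene body counts in WT hypoxia and WT normoxia, so its values that use those counts are a description with no test. Its neighbours were taken for their position, but with earlier results of these data known, so their tests are not free of that choice. The genes LRRC56, LMNTD2 and DRD4 also lie between HRAS and DEAF1 and are not among the 8. CDHR5 had at most 2 reads in any library and could not be tested.

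PRO-seq (precision run-on sequencing) counts engaged RNA polymerases on each strand, rather than accumulated RNA. The cells were HCT116, an established colorectal carcinoma line, either wild-type (WT) or HIF1A-/-, a derivative in which exons of HIF1A were disrupted by homologous recombination, so all HIF1A-/- libraries come from that 1 engineered line. Cells of each genotype were kept in normoxia or exposed to 1% O2 for 90 min, with DMSO as vehicle in every group, and each of the 4 groups had 2 biological replicates, giving 8 libraries.

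HIF1A is the oxygen-regulated subunit of a transcription factor that accumulates when oxygen falls, pairs with ARNT and binds a short core motif (A or G followed by CGTG) in its target genes. MIR210HG is the host gene of miR-210, the microRNA known for its induction by hypoxia in many cell types. Because the start sites of several genes lie within a few kilobases here and some pairs of genes diverge from neighbouring promoters, the locus allows responses of adjacent units on both strands to be compared.

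Both mature forms of miR-210 from the RefSeq microRNA table (GRCh38.p14) matched chromosome 11 of GRCh37 once each, on the minus strand, in sense with MIR210HG. The sequences are printed 5′ to 3′ with the seed, bases 2 to 8, in capitals, since this is the product for which the host gene is known.
hsa-miR-210-3p: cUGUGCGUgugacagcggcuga
hsa-miR-210-5p: aGCCCCUGcccaccgcacacug
The 3p form lies at chr11:568112-568133 and the 5p form at chr11:568150-568171. The 2 seeds differ, and 0 other mature names among the 2370 in that table carried either of them. The 110-nt hairpin, chr11:568089-568198, spans positions 259 to 368 counted from the MIR210HG start. It lies inside the 551-bp start (TSS) region counted for MIR210HG, which runs from 50 bp before the start to 500 bp after it. The gene body region begins 1001 bp after the start, so the gene body counts described below do not take in the hairpin.

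MIR210HG is on the minus strand, from a start at position 568457 of chromosome 11 (GRCh37), and GENCODE lists it as a lncRNA. Downstream of its body on the plus strand, across a gap of 1630 bp, is the end of RASSF7, a Ras-association domain family gene that starts at 561449 and is transcribed towards MIR210HG. Next on the minus strand, 5877 bp beyond the MIR210HG body, is LMNTD2, which encodes a lamin tail domain protein, is not among the 8 genes and is described because its response passed the test below. LMNTD2 starts at 560779 and diverges from RASSF7. Upstream of MIR210HG, LOC143666, a transcript of unassigned function, starts at 575885 on the minus strand and diverges from PHRF1, a PHD and RING finger gene that starts at 576445 on the plus strand. HRAS, the Ras GTPase gene, starts 32890 bp downstream on the minus strand. IRF7, which encodes a transcription factor of the interferon response, starts 47542 bp upstream, CDHR5, a cadherin-family gene of intestinal microvilli, 56610 bp upstream and DEAF1, a zinc finger transcription factor gene, 127297 bp upstream, all on the minus strand. LOC143666 is the 1 gene of the 8 whose symbol is not in the GENCODE annotation used here.

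The 250 bases before each start were read from GRCh37 and searched on both strands for the letters ACGTG and GCGTG, the core of the hypoxia response element. Of all 23193 promoters of that length, 19.0% held ACGTG, 35.9% held GCGTG and 47.0% held at least 1 of them. The promoters of MIR210HG and of its neighbours LOC143666 and RASSF7 are printed 5′ to 3′ along each gene's own strand, with matches on either strand in capitals, so a match on the opposite strand reads CACGT or CACGC.
MIR210HG: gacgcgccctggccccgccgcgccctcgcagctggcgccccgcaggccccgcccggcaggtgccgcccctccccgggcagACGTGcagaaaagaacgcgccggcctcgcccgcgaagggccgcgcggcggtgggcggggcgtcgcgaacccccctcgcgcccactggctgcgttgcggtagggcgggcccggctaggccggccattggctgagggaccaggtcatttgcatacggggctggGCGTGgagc
LOC143666: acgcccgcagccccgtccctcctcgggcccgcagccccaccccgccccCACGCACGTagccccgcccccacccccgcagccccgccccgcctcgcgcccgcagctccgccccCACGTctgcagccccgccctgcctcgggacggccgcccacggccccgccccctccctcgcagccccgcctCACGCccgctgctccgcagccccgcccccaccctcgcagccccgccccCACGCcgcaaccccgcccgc
RASSF7: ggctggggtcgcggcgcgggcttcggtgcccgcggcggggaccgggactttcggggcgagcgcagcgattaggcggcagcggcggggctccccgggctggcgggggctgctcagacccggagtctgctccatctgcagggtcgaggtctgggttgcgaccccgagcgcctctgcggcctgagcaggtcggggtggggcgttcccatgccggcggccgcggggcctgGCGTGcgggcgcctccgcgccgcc
The windows are chr11:568458-568707 (minus strand) for MIR210HG, chr11:575886-576135 (minus) for LOC143666 and chr11:561199-561448 (plus) for RASSF7. MIR210HG held 1 ACGTG, whose first base is at position -170 from the start, and 1 GCGTG at -9, both along its own strand. LOC143666 held 2 ACGTG and 3 GCGTG, all on the opposite strand, of which the ACGTG at -198 shares a base with the GCGTG at -202. RASSF7 held 1 GCGTG at -24 and no ACGTG. Of the other neighbours, HRAS held 1 GCGTG, IRF7 and DEAF1 held 1 ACGTG each, and the windows of PHRF1 and CDHR5 held neither. LRRC56, a leucine-rich repeat gene whose body overlaps that of LMNTD2 by 68 bp on the plus strand, held 2 CACGTG, a palindrome that reads ACGTG on each strand and so counts as 4 ACGTG, and 2 GCGTG, of which the one at -170 shares a base with a CACGTG. A match is a description of the letters in these windows, and binding was not measured here.

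Gene body counts summed to between 18125234 and 23622392 reads per library, and TSS counts to between 2783581 and 5966348. HIF1A itself was transcribed in every library, at 130 to 175 CPM (gene body counts per 1000000 reads) with hypoxia and normoxia overlapping within each genotype, and these counts do not test the genotype label because its disruption removes only part of the gene. All 5 epithelial markers and CDX2 were present. The intestinal markers CDX1 and VIL1 and the leukocyte markers were at most 0.622 CPM in any library and the endothelial marker CDH5 at most 1.62 CPM, whereas the fibroblast marker COL1A1 reached 49.3 CPM although COL1A2 and DCN were near 0. Reads were counted by strand: of 437 gene bodies lying within another on the same strand, 437 had 0 reads, against 185 of 876 (21.1%) on the opposite strand only. The plus-strand counts of RASSF7 and the minus-strand counts of MIR210HG and LMNTD2 are therefore separate measurements.

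In WT cells, the MIR210HG body had 116 and 99 reads in the normoxia libraries and 1488 and 2545 in the hypoxia libraries. After TMM scaling these were 5.75 and 5.46 CPM against 78.6 and 105.6 CPM. Both hypoxia libraries lay far above both normoxia libraries, with a mean of 92.1 ± 19.1 CPM (SD, n = 2) against 5.61 ± 0.20 CPM. The fitted difference was 16.4-fold (95% interval 10.4 to 26.0), or 4.04 on the log2 scale, the 8th largest increase among 16686 gene bodies fitted. In a list of 35 symbols of known HIF targets, ERO1A and ERO1L name the same gene. Of the 35 symbols, 34 were present in the counts and 33 were fitted, with a median WT response of 2.08 on the log2 scale. Of these 33, 25 passed the test, against 0.431% of all gene bodies called higher, and 1, ANKRD37 at 4.82, exceeded MIR210HG. In HIF1A-/- cells the median log2 response of these 33 genes was 0.06, and 3 of them exceeded MIR210HG. This list was written with earlier results of these data known. Each library averages over a culture, so fewer transcribing cells and less transcription per cell cannot be told apart in any of these values.

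In HIF1A-/- cells, the MIR210HG body had 117 and 169 reads in normoxia (5.60 and 7.78 CPM) and 164 and 268 reads in hypoxia (8.21 and 12.6 CPM). The groups did not overlap, but the separation was small, 8.21 CPM in the lower hypoxia library against 7.78 CPM in the higher normoxia library. The response was 1.55-fold (95% interval 1.01 to 2.39), and did not pass the quasi-likelihood test of edgeR after Benjamini-Hochberg adjustment over all gene bodies (unadjusted p = 0.0452, adjusted p = 1). With replicates paired it was 0.63 on the log2 scale (95% interval 0.245 to 1.01). It did not pass in that fit either (edgeR unadjusted p = 0.00519, adjusted p = 0.292). Without pairing, edgeR called 0% of gene bodies in this contrast in either direction. At an unadjusted p under 0.05, 175 had a higher and 172 a lower value in the edgeR fit without pairing. DESeq2 called 2 higher and 6 lower. The WT response exceeded the HIF1A-/- response by 10.6-fold (95% interval 5.73 to 19.5), which is a description for the same reason as the WT value. In normoxia the ratio of HIF1A-/- over WT for MIR210HG was 1.19-fold (95% interval 0.767 to 1.86), again a description, since the WT normoxia counts were among those it was chosen on.

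**Figure D1:**
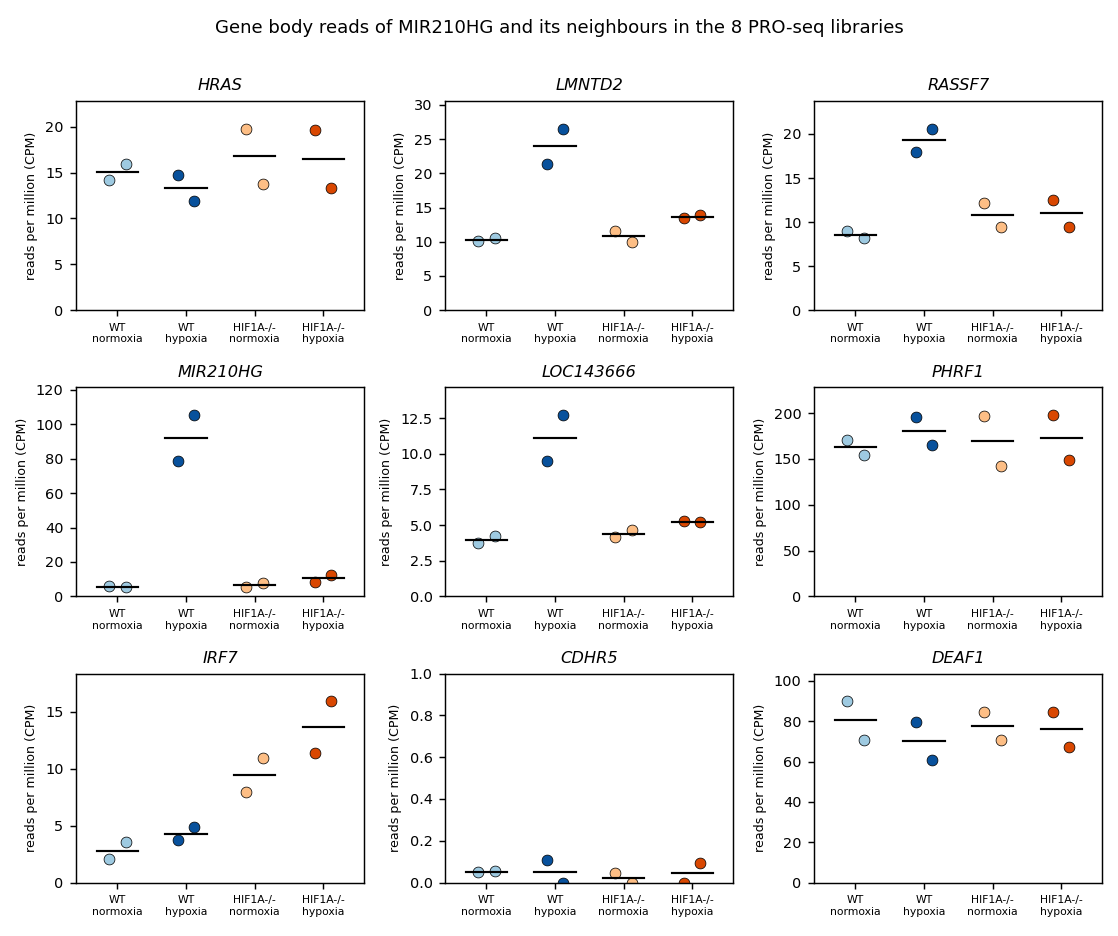
Gene body counts in CPM (TMM-scaled, each axis from 0) for the 8 genes and LMNTD2, with a point for each of the 8 libraries and a line at the mean of the 2 libraries of a group. MIR210HG, LOC143666, RASSF7 and LMNTD2 share a pattern in which both WT hypoxia points lie above the other 6, whereas IRF7 is higher in the 4 HIF1A-/- libraries and CDHR5 stays near 0. The share of all gene bodies with that pattern was not computed.

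LOC143666 upstream of MIR210HG, and RASSF7 and LMNTD2 downstream, had higher gene body counts in WT hypoxia than in WT normoxia, by 2.2- to 2.8-fold. RASSF7 is on the plus strand, and LOC143666 and LMNTD2 are on the minus strand. PHRF1, the nearest plus-strand unit upstream, had a WT response of 1.11-fold, and its WT groups overlapped. Of the 25 neighbouring gene bodies within 250 kb that could be tested, 1 (LMNTD2) was called higher at an FDR of 10%, against 0.431% of all gene bodies tested, and 0 were called lower. Of the 6 testable members besides MIR210HG, edgeR called 0, while 2 (LOC143666 and RASSF7) had a higher value at an unadjusted p under 0.05, against 3.51% of all gene bodies, and DESeq2 called these 2, against 1.04% of all gene bodies. Pairing libraries by replicate number, which the correlations described under processing bear out, 4 of the 25 were called, LMNTD2, LOC143666, RASSF7 and LRRC56, against 3.73% of all gene bodies.

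LMNTD2, downstream on the same strand, had 10.2 and 10.5 CPM in WT normoxia and 21.3 and 26.5 CPM in WT hypoxia. The HIF1A-/- values were 11.6 and 10.0 CPM in normoxia against 13.4 and 13.9 CPM in hypoxia. Both WT hypoxia libraries were above the other 6. LMNTD2 rose 2.32-fold in WT cells (95% interval 1.71 to 3.16, edgeR's quasi-likelihood adjusted p = 0.0713, and 0.00892 with replicates paired). The HIF1A-/- value was 1.27-fold (95% interval 0.932 to 1.72, edgeR adjusted p = 1). The WT call was lost without any 1 of the 4 WT libraries or either HIF1A-/- hypoxia library (edgeR adjusted p = 0.116 to 0.830), with folds on the log2 scale between 1.05 and 1.37. The tables count reads per region, so polymerases that began at LMNTD2 and any that began further upstream on the same strand cannot be told apart in its counts.

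LOC143666, upstream on the same strand, had 75 and 77 reads in WT normoxia and 179 and 307 in WT hypoxia, or 3.72 and 4.25 CPM against 9.46 and 12.7 CPM. Without HIF1A these were 4.16 and 4.65 CPM in normoxia against 5.26 and 5.21 CPM in hypoxia. The WT hypoxia libraries were the highest of the 8, and in HIF1A-/- cells the hypoxia libraries also lay above the normoxia libraries by a smaller margin. The WT response was 2.79-fold (95% interval 1.85 to 4.21). This fell just short of the threshold (edgeR's quasi-likelihood adjusted p = 0.1008) and passed it with replicates paired (edgeR adjusted p = 0.00829) and in DESeq2 (adjusted p = 4.04e-04). The value in HIF1A-/- cells was 1.19-fold (95% interval 0.788 to 1.79, edgeR adjusted p = 1).

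RASSF7, on the opposite strand, had 181 and 148 reads in WT normoxia and 339 and 497 in WT hypoxia, or 8.97 and 8.17 CPM against 17.9 and 20.6 CPM. HIF1A-/- cells had 12.2 and 9.43 CPM in normoxia against 12.5 and 9.48 CPM in hypoxia. The WT hypoxia libraries again exceeded the other 6, and the HIF1A-/- groups overlapped. The WT response was 2.25-fold (95% interval 1.55 to 3.25). It did not pass edgeR's quasi-likelihood test (adjusted p = 0.172), and passed with replicates paired (edgeR adjusted p = 0.0191) and in DESeq2 (adjusted p = 0.00156). The HIF1A-/- value was 1.02-fold (95% interval 0.706 to 1.47, edgeR adjusted p = 1).

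The differences between the genotypes in these responses were 2.35-fold for LOC143666 (95% interval 1.32 to 4.19), 2.21-fold for RASSF7 (1.31 to 3.71) and 1.83-fold for LMNTD2 (1.19 to 2.83). These 3 are given because of their WT response, which is part of this contrast. Their intervals, which all excluded 1, and their p-values are therefore not free of that choice. Of the 25 window neighbours tested, these 3 had a higher value at edgeR's unadjusted p under 0.05, against 1.26% of all gene bodies. None of the 3 differences passed edgeR's quasi-likelihood test with adjustment over all gene bodies (adjusted p = 1.00 for each). The call rate in this comparison was 0.0539% higher and 0% lower. With replicates paired the edgeR adjusted p was 0.294 for LOC143666, 0.308 for RASSF7 and 0.468 for LMNTD2.

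The remaining neighbours showed smaller values. LRRC56 had 26.3 and 32.4 CPM in WT normoxia and 38.0 and 41.9 CPM in WT hypoxia, with no overlap. It had 26.8 and 37.4 CPM in HIF1A-/- normoxia and 34.8 and 43.4 CPM in HIF1A-/- hypoxia, which overlapped. Its WT response of 1.36-fold (95% interval 0.972 to 1.91) did not pass edgeR's quasi-likelihood test (adjusted p = 0.897), and passed with replicates paired (edgeR adjusted p = 0.0858).

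PHRF1, whose promoter faces that of LOC143666 across 560 bp between their starts, had 171.0 and 153.9 CPM in WT normoxia and 195.8 and 165.2 CPM in WT hypoxia. Its WT groups overlapped, and the fitted response was 1.11-fold (95% interval 0.803 to 1.54, edgeR's quasi-likelihood adjusted p = 0.901). The HIF1A-/- libraries of PHRF1 had 196.4 and 141.9 CPM in normoxia and 198.2 and 148.4 CPM in hypoxia, or 1.02-fold (95% interval 0.741 to 1.42). The upper bounds lie below the WT fold of LOC143666.

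HRAS had 14.2 and 15.9 CPM in WT normoxia and 14.7 and 11.9 CPM in WT hypoxia. It had 19.8 and 13.8 CPM in HIF1A-/- normoxia and 19.6 and 13.3 CPM in HIF1A-/- hypoxia. The groups overlapped in both genotypes, and the responses were 0.883-fold in WT (95% interval 0.575 to 1.35) and 0.979-fold in HIF1A-/- cells (0.640 to 1.50).

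DEAF1 had 90.1 and 70.7 CPM in WT normoxia against 79.7 and 60.8 CPM in WT hypoxia. The HIF1A-/- libraries had 84.8 and 70.6 CPM in normoxia against 84.7 and 67.4 CPM in hypoxia. All 4 groups overlapped, with responses of 0.873-fold in WT (95% interval 0.631 to 1.21) and 0.979-fold in HIF1A-/- cells (0.707 to 1.35). Neither HRAS nor DEAF1 passed edgeR's quasi-likelihood test in either genotype.

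For IRF7 the larger separation was between the genotypes. WT libraries had 2.03 and 3.53 CPM in normoxia and 3.70 and 4.85 CPM in hypoxia. HIF1A-/- libraries had 7.99 and 10.9 CPM in normoxia and 11.4 and 16.0 CPM in hypoxia. Every HIF1A-/- library exceeded every WT library, and within each genotype the hypoxia libraries lay above the normoxia libraries.
In normoxia IRF7 was 3.40-fold higher in HIF1A-/- than in WT cells (95% interval 1.93 to 5.99), which passed edgeR's quasi-likelihood test (adjusted p = 0.0716, and 0.00117 with replicates paired). It was the 1 member called among 6 tested besides MIR210HG, and the 1 called among the 25 gene bodies of the window, against 0.725% of all gene bodies higher and 1.05% lower. The call was lost without TMM scaling (edgeR adjusted p = 0.112) and without any 1 of the WT libraries or of the HIF1A-/- normoxia libraries (edgeR adjusted p = 0.101 to 0.390). The hypoxia response of IRF7 was 1.55-fold in WT (95% interval 0.875 to 2.73) and 1.45-fold in HIF1A-/- cells (0.854 to 2.46), and neither passed edgeR's test. The genotype difference in that response was 1.07-fold (95% interval 0.495 to 2.30).

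CDHR5 had 0 to 2 body reads and 0 to 2 TSS reads in every library. A count of 0 allows up to 3 reads, so no change in either direction could be measured at this depth.

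**Figure D2:**
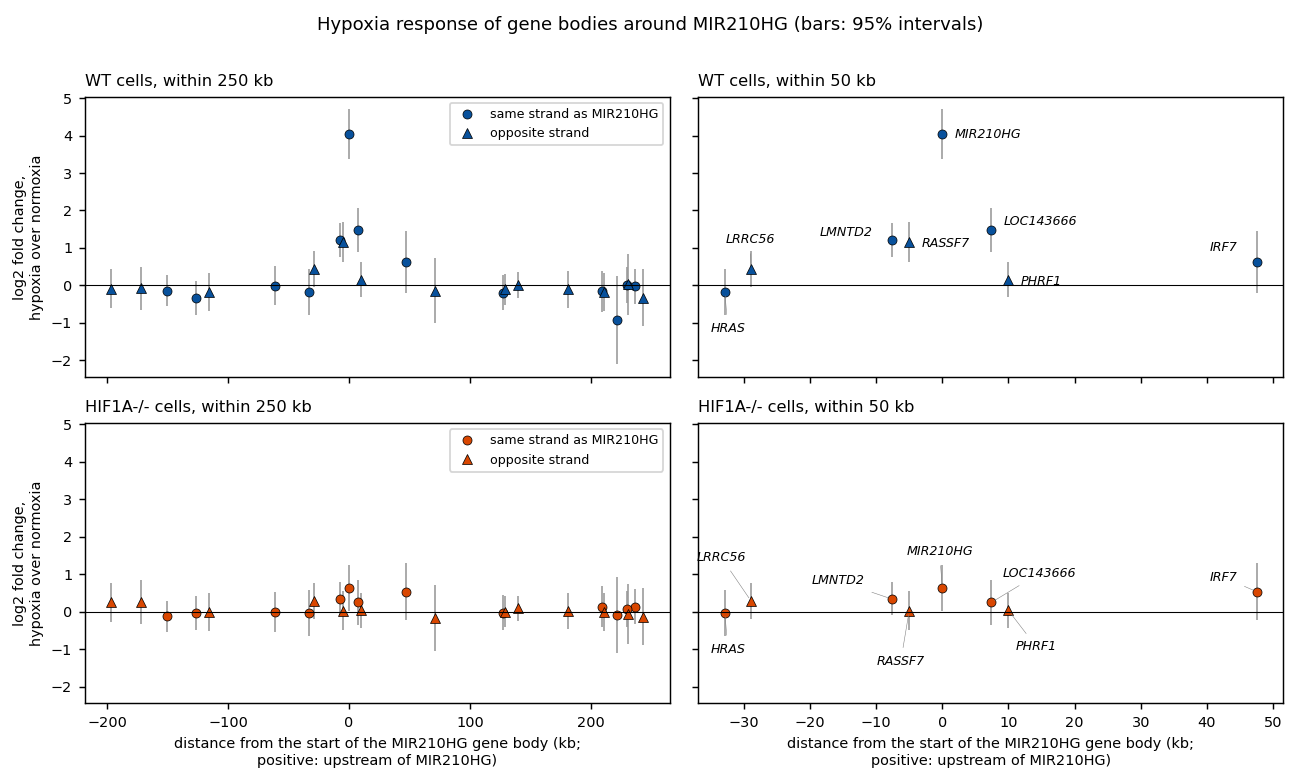
Log2 fold change of gene body counts (hypoxia over normoxia, edgeR, bars for 95% intervals) against distance in kb from the start of the MIR210HG body, in WT (blue) and HIF1A-/- (orange) cells, for MIR210HG and the 25 tested gene bodies within 250 kb at left and within 50 kb at right. In WT cells LMNTD2, RASSF7 and LOC143666 stand at 1.17 to 1.48. The other 22 neighbours, set apart as those whose intervals include 0 in this fit without pairing, lie between -0.93 and 0.63.

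Across the window the higher WT values lay near MIR210HG. The 7 tested neighbours whose bodies start within 50 kb had a median log2 response of 0.63 in WT cells, ranging from -0.18 to 1.48. Of these 7, 6 were above 0, against 7923 of all 16686 gene bodies tested. The 2 between 50 and 100 kb had a median of -0.07, the 16 between 100 and 250 kb of -0.12 and the 17 between 250 and 1000 kb of -0.11, beside -0.02 over all gene bodies. The 22 window neighbours other than LMNTD2, RASSF7 and LOC143666 had values from -0.93 to 0.63. LMNTD2, RASSF7 and LOC143666 were the 3 of the 25 with an unadjusted p under 0.05 in the edgeR fit without pairing. That none of the other 22 had one there follows from leaving these 3 out. Among the 22 with replicates paired, edgeR's unadjusted p was under 0.05 for LRRC56 (0.00369) and IRF7 (0.0121), both higher. It was also under 0.05 for ANO9 (0.0305) and DEAF1 (0.0484), both lower. In HIF1A-/- cells 6 of the 7 within 50 kb were also above 0, against 8376 of all 16686 gene bodies tested. These 7 had a median of 0.25 and a range of -0.03 to 0.53. With replicates paired, edgeR's unadjusted p in HIF1A-/- cells was under 0.05 for LRRC56 (0.0305) and IRF7 (0.0121), both higher. The HIF1A-/- medians were -0.09 between 50 and 100 kb and -0.00461 between 100 and 250 kb. The medians are descriptions, and neighbouring genes are not replicates of one another.

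The size of the response was not ordered by distance between start sites alone. LOC143666 and PHRF1 start 7428 and 7988 bp upstream of MIR210HG, and their WT responses were 2.79-fold and 1.11-fold. On the downstream side RASSF7 and LMNTD2 start 7008 and 7678 bp away and had values of 2.25-fold and 2.32-fold, whose intervals overlap. Strand did not separate the responses either, since the plus-strand units RASSF7 and PHRF1 stood on different sides of 1.5-fold.

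Per length, MIR210HG was not the most transcribed of these genes in WT normoxia. Its body density was 3.11 ± 0.11 RPKM (CPM per kb of gene body, SD, n = 2), below HRAS at 6.48 ± 0.52, RASSF7 at 5.44 ± 0.36, PHRF1 at 4.67 ± 0.35 and LOC143666 at 3.69 ± 0.35 RPKM, and above DEAF1 at 1.59 ± 0.27 and IRF7 at 1.14 ± 0.43 RPKM. The libraries of DEAF1 and IRF7 overlapped, and no other adjacent pair in this order did. In WT hypoxia MIR210HG was first at 51.1 ± 10.6 RPKM, followed by RASSF7 at 12.2 ± 1.2 and LOC143666 at 10.3 ± 2.1 RPKM, which overlapped, and by HRAS at 5.73 ± 0.86 and PHRF1 at 5.19 ± 0.62 RPKM, which also overlapped. In HIF1A-/- hypoxia it was at 5.77 ± 1.71 RPKM, below HRAS at 7.07 ± 1.93 and RASSF7 at 6.98 ± 1.36 RPKM, with overlapping libraries.

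The gain in mean density between WT normoxia and WT hypoxia was 48.0 RPKM for MIR210HG. It was 6.79 RPKM for RASSF7 and 6.60 RPKM for LOC143666, or 14.1% and 13.7% of the MIR210HG gain. LMNTD2 gained 2.76 RPKM (5.76%) and LRRC56 0.646 RPKM (1.35%). In HIF1A-/- cells the gain was 2.06 RPKM for MIR210HG, 0.768 RPKM for LOC143666, 0.583 RPKM for LMNTD2 and 0.130 RPKM for RASSF7. Differences in the other direction also occurred within 250 kb in WT cells, at -7.22 RPKM for the ribosomal protein gene RPLP2, or -15.0% of the MIR210HG gain, and -2.14 RPKM for LOC171391, neither of which passed edgeR's test.

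**Figure D3:**
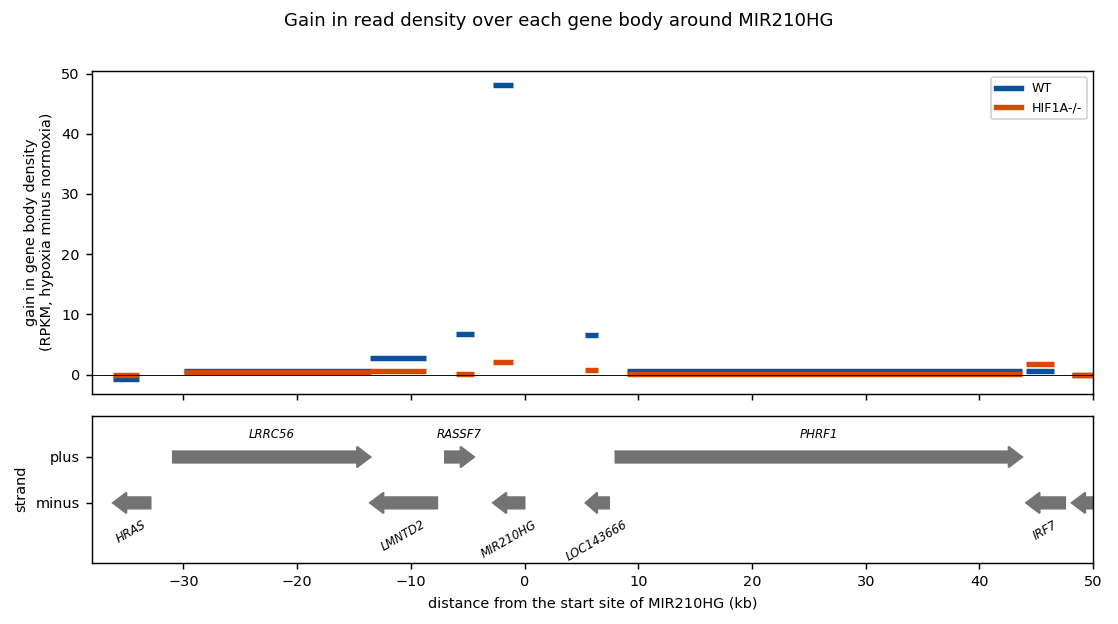
Difference in mean gene body density (RPKM, hypoxia minus normoxia) in WT (blue) and HIF1A-/- (orange) cells, drawn as a bar over the extent of each gene body, against distance in kb from the MIR210HG start, with the genes below as arrows from start to end on their strand. The WT bar stands at 48.0 RPKM over MIR210HG, 6.79 over RASSF7, 6.60 over LOC143666 and 2.76 over LMNTD2.

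At MIR210HG and its neighbours LOC143666, LMNTD2 and RASSF7, TSS counts differed less between WT hypoxia and WT normoxia than gene body counts did. In WT cells the MIR210HG TSS region had 25 and 18 reads in normoxia and 88 and 94 in hypoxia, or 5.55 and 4.70 CPM against 18.5 and 16.1 CPM. The HIF1A-/- libraries had 7 and 27 reads in normoxia and 13 and 20 in hypoxia, or 2.53 and 6.27 CPM against 4.31 and 4.66 CPM. The WT groups were far apart and the HIF1A-/- groups overlapped. The difference was 3.35-fold in WT (95% interval 1.79 to 6.27), given as a description, and 0.979-fold in HIF1A-/- cells (95% interval 0.480 to 2.00, edgeR's quasi-likelihood adjusted p = 1). With at most 27 reads in any HIF1A-/- library, changes within that interval were not detectable.

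The LOC143666 TSS region had 99.2 and 70.5 CPM in WT normoxia and 105.1 and 123.5 CPM in WT hypoxia, with no overlap, and a ratio of 1.35-fold (95% interval 1.01 to 1.80). The LMNTD2 TSS region had 95.7 and 105.7 CPM in WT normoxia and 121.2 and 142.4 CPM in WT hypoxia, again with no overlap, and a ratio of 1.31-fold (1.02 to 1.68). The RASSF7 TSS region had 30.4 and 25.1 CPM in WT normoxia and 34.0 and 36.0 CPM in WT hypoxia, for 1.26-fold (0.803 to 1.98).
None of these 3 passed edgeR's quasi-likelihood test over 15212 TSS regions (adjusted p = 0.922 for each), where 0.046% were called higher and 0% lower, nor with replicates paired (edgeR adjusted p = 0.265 to 0.572). The HRAS and PHRF1 TSS regions had lower mean values in WT hypoxia, at 0.704-fold (95% interval 0.361 to 1.37) and 0.738-fold (0.438 to 1.24), and did not pass either.

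The pausing index was taken as TSS CPM per bp over gene body CPM per bp, each on the total of its own table. Because the totals differ, an index of 1 does not mean equal reads per bp, and the unscaled ratio of reads per bp was added after the data were seen. Both WT hypoxia libraries had a lower index than both WT normoxia libraries at 6 of 9 genes, MIR210HG, LOC143666, RASSF7, LMNTD2, HRAS and LRRC56, and with the unscaled ratio at 4, since HRAS and LRRC56 then overlapped. In HIF1A-/- cells the index separated at 3 of the 9 and the unscaled ratio at 0. The share of all genes that separate in this way was not computed, so these counts describe the 9 genes only. For MIR210HG the WT normoxia libraries gave 3.29 and 2.82 and the WT hypoxia libraries 0.772 and 0.478. The HIF1A-/- libraries gave 1.55 and 2.57 without and 1.75 and 1.16 with hypoxia. The HIF1A-/- groups overlapped. Unscaled, the TSS region of MIR210HG held fewer reads per bp than the body in all 8 libraries, at ratios of 0.704 and 0.594 in WT normoxia and 0.193 and 0.121 in WT hypoxia. Without HIF1A these ratios were 0.196 and 0.522 before hypoxia and 0.259 and 0.244 after it.
For LOC143666 the index was 54.4 and 32.6 in WT normoxia, against 21.8 and 18.2 after WT hypoxia. The HIF1A-/- libraries gave 38.0 and 29.5 before and 24.8 and 24.1 after hypoxia, which was the lower side in both genotypes, although the HIF1A-/- groups overlapped unscaled. For RASSF7 the WT libraries gave 10.1 and 8.82 in normoxia against 5.46 and 4.79 in hypoxia, and the HIF1A-/- libraries 9.88 and 6.67 against 8.81 and 7.79. The RASSF7 index separated in WT cells and overlapped in HIF1A-/- cells.
For LMNTD2 the WT libraries gave 87.8 and 90.7 in normoxia against 51.0 and 46.0 in hypoxia, and the HIF1A-/- libraries 64.6 and 70.4 against 50.3 and 52.0, so that hypoxia was again the lower side in both genotypes, with overlap in HIF1A-/- cells unscaled. HRAS, whose body response was 0.883-fold, had 3.36 and 2.57 in WT normoxia against 2.30 and 2.21 in WT hypoxia, and LRRC56 had 41.4 and 51.7 against 32.5 and 35.1. Since HRAS and LRRC56 overlapped unscaled, the separation of their WT groups held only with each table's own total as the scale. PHRF1, at 20.7 and 10.8 against 11.4 and 8.85 in WT cells, overlapped. These indices are descriptions with 2 libraries per group.

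**Figure D4:**
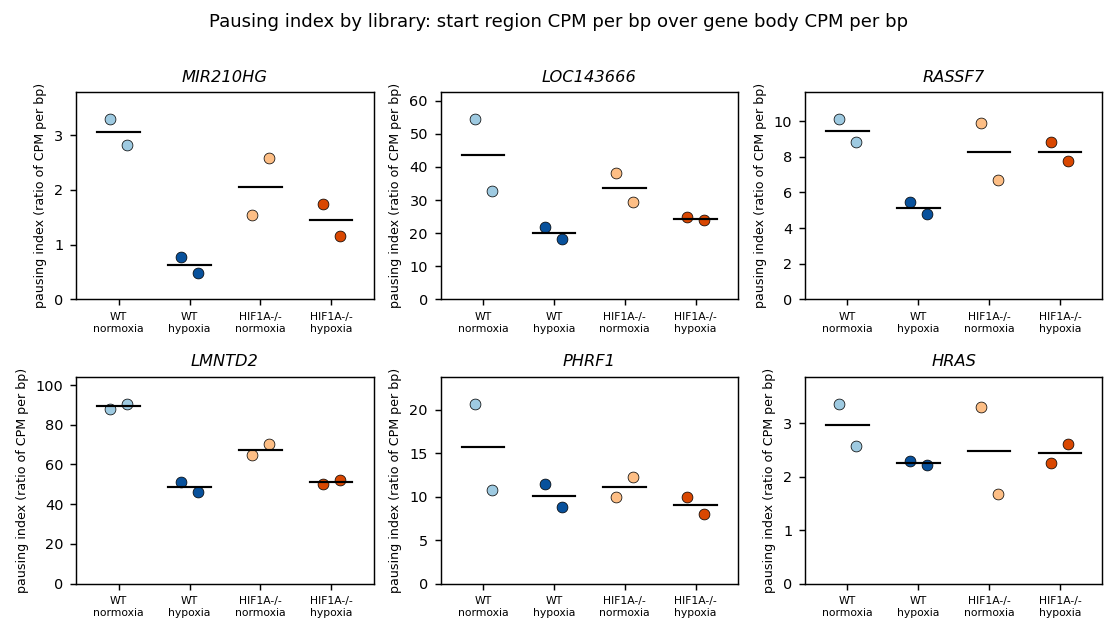
Pausing index (TSS CPM per bp over gene body CPM per bp, each on its own table's total, no unit, each axis from 0) of 6 genes, with a point for each library and a line at the mean of the 2 libraries of a group. For MIR210HG, LOC143666, RASSF7, LMNTD2 and HRAS both WT hypoxia points lie below both WT normoxia points, and for PHRF1 the WT groups overlap.

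Over the 8 libraries, the gene bodies whose log2 CPM followed that of MIR210HG most closely were KDM3A (Pearson's r = 0.997), RIMKLA (0.989), RIC1 (0.989), ZNF395 (0.983) and LGALS8 (0.983), none of them on chromosome 11. LOC143666 was 7th of the 16685 other gene bodies (r = 0.982), LMNTD2 21st (r = 0.968) and RASSF7 174th (r = 0.888). PHRF1 had r = 0.159, IRF7 -0.15, DEAF1 -0.48 and HRAS -0.55. These correlations are descriptions of 8 points that share libraries, and the 2 WT hypoxia libraries set most of their size.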

How the data were processed

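PRO-seq read counts from 8 HCT116 libraries were used as deposited. Per the labels and methods, the authors aligned reads to GRCh37 with HISAT2 2.1.0 and counted them by gene with featureCounts (Subread 1.6.2), in 1 TSS region and 1 gene body per gene. The deposited values are raw counts, and genes with several start sites are represented by 1 of them. The members and lists were chosen with earlier results of these data known.

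Gene bodies or TSS regions over 0.5 CPM in at least 2 libraries were fitted in edgeR 4.0.16 (R 4.3.3, TMM, glmQLFit, glmQLFTest), with 4 group means over all 8 libraries, and called at a Benjamini-Hochberg FDR of 10% over all rows. RPKM values are TMM-scaled CPM per kb. Pausing indices used each table's own totals. Named genes were the 8 members, neighbours called within 250 kb, the nearest on each strand, HIF1A, and the 5 most correlated with MIR210HG. The labels share replicate numbers between groups. Deviations from the group means correlated positively between same-numbered libraries for all 6 group pairs (r = 0.484 to 0.790 for bodies, 0.216 to 0.519 for TSS regions), so numbers were taken as pairs and the fit with a replicate block is given where it changed a call. The reported fit has no block, so its intervals, calls and window counts leave this pairing out. With the block, 623 gene bodies rather than 72 were called higher in WT hypoxia. The code was tested on simulated data. Alternatives were DESeq2 1.42.0, no TMM, other filters, the block, other windows and leaving out each library. The intervals take in the spread between replicate libraries, whereas the floor of 3 counts covers sampling of reads only. Both rest on these libraries alone, and reads without molecular identifiers may be PCR copies. Motifs were searched with Python. The promoter of LMNTD2 is not reported here.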

Additional observations from a re-analysis of the deposited data

How the results depend on the processing

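With 2 libraries per group, the counts of calls moved more than the fold changes. Of 50 fold changes tested under 13 settings each (650 values), 585 kept their direction and their side of the threshold, 13 lost and 6 gained a call and 46 changed sign, 44 of these on leaving out a library. None of the 46 was a call, and the largest reported size among the 23 fold changes concerned was 0.44 (log2). On leaving out a library, the HIF1A-/- body response ranged from -0.18 to 0.12 for DEAF1, -0.32 to 0.24 for HRAS, -0.17 to 0.27 for PHRF1 and -0.16 to 0.21 for RASSF7, and the HIF1A-/- TSS response of MIR210HG from -0.48 to 0.82. Without TMM the HIF1A-/- body values of DEAF1 and HRAS were 0.00844 and 0.00988. The cause was not tested.

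Neighbours within 250 kb called higher in WT cells numbered 1, and 3 by DESeq2, 2 with no filter on low counts, 4 with the replicate block and 0 to 1 without 1 library. For the members besides MIR210HG these were 0, and 2, 1, 2 and 0. In normoxia the 1 call (IRF7) became 0 without TMM and 0 to 1 without 1 library, in the window and among the members.

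Over all gene bodies, 72 were called higher in WT hypoxia, 174 by DESeq2, 623 with the block and 0 to 89 without 1 library, and 0 lower, 1 by DESeq2 and 296 with the block. The HIF1A-/- response had 0 calls, 2 higher and 6 lower by DESeq2, and 5 and 1 with the block. The genotype difference had 9, 68 by DESeq2, 17 with no filter, 64 with the block and 0 to 10 without 1 library. HIF1A-/- against WT in normoxia had 121 higher and 176 lower, 299 and 331 by DESeq2, 656 and 1066 with the block, and 29 to 111 and 41 to 161 without 1 library. Over TSS regions the WT response had 7 higher, 15 by DESeq2, 49 with no filter, 120 with the block and 1 to 12 without 1 library, and 0 lower, 14 with no filter and 33 with the block. The HIF1A-/- TSS response had 0, and 1 higher and 1 lower with no filter and 1 higher with the block. The block changed no call of a member beyond those given with LOC143666 and RASSF7. The median WT response of the neighbours was -0.09 within 250 kb and 0.45 within 100 kb. With the unscaled ratio of reads per bp, a setting chosen after seeing the data, the log2 change of the pausing index in WT hypoxia was -2.05 for MIR210HG in place of -2.29, -0.88 for LOC143666 in place of -1.12, -0.64 for RASSF7 in place of -0.89 and -0.63 for LMNTD2 in place of -0.88.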
